A study of Mus musculus with 180 samples.

Results

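The regions described here were open chromatin in epiblast-like cells (EpiLCs) with no counterpart in the table of open regions from embryonic stem cells (ESCs). They are the 29704 EpiLC regions, of 100415 in all, that overlapped none of the 112226 ESC regions by even 1 bp. The other 70711 EpiLC regions overlapped at least 1 ESC region and are called shared regions. The choice used overlap of positions only, but it rests on which regions the ESC table holds, and how that table was filtered was not tested. A larger ESC table in the series, with 241241 regions, has a region at 17908 of the EpiLC-only regions (60.3%). The ESC level there, averaged over lines, was low, with a median of 0.61 on the log2 scale of that table, against 2.56 at shared regions, and a mean over the B6, D2 and BXD lines never above 1.44. The lower quartile of shared regions was 1.79. Being in the ESC table may itself depend on ESC level, so the low level may follow from the choice and is given as a description. The remaining 11796 EpiLC-only regions overlapped no region of either ESC table. At the edge of the rule, 234 EpiLC-only regions lay within 100 bp of an ESC region and 3501 lay under 1 kb from one, while the median distance was 5.77 kb. On the other side of the edge, 109 shared regions overlapped ESC regions by at most 100 bp, and their median signal of 3.52 was near the 3.13 of the 234.

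Open chromatin was measured by ATAC-seq, in which a transposase inserts sequencing adapters where DNA is accessible, and gene expression by RNA-seq. The groups are EpiLC lines of the inbred mouse strains C57BL/6J (B6, lines B41, B44 and B51) and DBA/2J (D2, lines D29, D55 and DAC203), 1 library per line, and 33 lines of the BXD panel, again 1 library each. BXD strains descend from a B6 by D2 cross and were inbred, so that each carries either parent's allele at nearly every locus. TRIM28 ChIP-seq from the same 6 parental lines, and P300 and POU5F1 binding sites from 2 lines of each strain, were used where they overlapped these regions. All of this ChIP-seq was done in naive ESCs, not in EpiLCs. Each strain is represented by 3 cell lines and each BXD strain by 1, so the spread within a strain is a spread between lines. These are bulk cultures, in which a smaller share of cells with an open region and less opening per cell cannot be told apart.

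EpiLCs are made from naive ESCs in culture and stand for the formative epiblast, the state between the pre-implantation inner cell mass and the primed epiblast. On leaving the naive state, cells lower Klf2, Esrrb and other naive factors and raise Pou3f1, Otx2, Fgf5 and the DNA methyltransferases Dnmt3a and Dnmt3b, while POU5F1 stays on and moves to new enhancers. Enhancers tend to lie away from promoters and can carry short motifs for the factors that bind them. Large arrays of KRAB zinc finger genes, whose proteins recruit TRIM28 (KAP1) to transposons, differ between mouse strains and are known for strain-specific effects in pluripotent cells.

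Sequences of the middle 200 bases are shown for 9 regions that the results below turn on, read on the plus strand of the C57BL/6J reference genome (GRCm38, the mm10 build). Capitals mark matches, on either strand, to short strings known for factor families: TAATCC (OTX), CCTGCTG (ZIC), GGAATG (TEAD), TGANTCA (AP-1) and AACCNGTT (GRHL). None of these 5 strings contains another, and a match is a match of letters, not a binding site. The windows overlap no annotated exon. Regions followed across the BXD lines together with a nearby gene come before those with the greatest strain differences.
Promoter of Stmn4, chr14:66344456-66344655: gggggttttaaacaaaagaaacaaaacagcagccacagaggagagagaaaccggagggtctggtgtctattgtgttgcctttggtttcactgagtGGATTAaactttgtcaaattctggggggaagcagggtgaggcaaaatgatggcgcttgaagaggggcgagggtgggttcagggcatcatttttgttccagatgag
Promoter of 2410141K09Rik, chr13:66440082-66440281: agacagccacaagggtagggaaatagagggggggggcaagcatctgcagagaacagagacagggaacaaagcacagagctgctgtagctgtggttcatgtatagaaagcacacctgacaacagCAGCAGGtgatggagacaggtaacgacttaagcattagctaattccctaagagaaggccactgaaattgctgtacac
Upstream of Gm10772, chr13:66243005-66243204: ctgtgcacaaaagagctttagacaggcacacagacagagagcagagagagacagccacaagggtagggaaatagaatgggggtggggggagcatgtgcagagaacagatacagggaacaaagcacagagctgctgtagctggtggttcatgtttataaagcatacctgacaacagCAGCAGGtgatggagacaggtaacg
Intron of Slfn8, chr11:83006356-83006555: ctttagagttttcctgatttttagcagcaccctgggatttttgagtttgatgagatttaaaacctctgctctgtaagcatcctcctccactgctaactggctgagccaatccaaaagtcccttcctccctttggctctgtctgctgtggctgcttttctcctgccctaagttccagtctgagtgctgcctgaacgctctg
Intron of Gm26754, nearest Gm10772, chr13:66277978-66278177: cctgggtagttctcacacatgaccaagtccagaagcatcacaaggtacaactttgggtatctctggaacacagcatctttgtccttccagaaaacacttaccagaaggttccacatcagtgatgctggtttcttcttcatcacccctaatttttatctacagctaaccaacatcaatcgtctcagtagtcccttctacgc
Intron of Gm26754, nearest Gm26715, chr13:66292543-66292742: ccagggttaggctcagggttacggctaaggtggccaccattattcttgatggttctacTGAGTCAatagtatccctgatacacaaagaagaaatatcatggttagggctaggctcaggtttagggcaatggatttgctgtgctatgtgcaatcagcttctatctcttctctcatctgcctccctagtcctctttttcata
Chromosome 4 region lower in D2, chr4:122029445-122029644: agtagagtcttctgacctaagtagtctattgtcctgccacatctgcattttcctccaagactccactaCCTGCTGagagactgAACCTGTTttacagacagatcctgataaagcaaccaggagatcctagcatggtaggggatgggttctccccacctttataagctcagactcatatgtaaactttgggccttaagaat
Chromosome 17 region near Olfr125, chr17:37824192-37824391: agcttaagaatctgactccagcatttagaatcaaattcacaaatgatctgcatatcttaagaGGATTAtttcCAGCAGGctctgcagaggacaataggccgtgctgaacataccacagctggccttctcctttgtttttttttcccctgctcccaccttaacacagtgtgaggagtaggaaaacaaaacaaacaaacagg
Intron of Tasp1, chr2:139906530-139906729: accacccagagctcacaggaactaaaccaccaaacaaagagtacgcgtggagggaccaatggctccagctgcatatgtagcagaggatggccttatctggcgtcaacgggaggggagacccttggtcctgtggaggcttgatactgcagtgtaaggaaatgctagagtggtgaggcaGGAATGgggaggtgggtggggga
The windows at 2410141K09Rik and upstream of Gm10772 start 197 kb apart and share 5 exact runs of at least 10 bases, 119 bases in total, the longest of 37 bases. These are near copies within a zinc finger gene cluster, so reads from one could be placed at the other, and their values are uncertain to that extent.

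Between 17195098 and 20307473 reads fell in EpiLC regions in the B6 libraries, 20489802 to 24346475 in D2, and 2244456 to 15453136 in the BXD lines, where BXD69 was lowest and BXD73 next at 9452228. On chromosome 11 the BXD81, BXD84, BXD99 and BXD161 libraries were 0.32 to 0.45 above the other lines on the log2 scale, and on chromosome 16 BXD84 was 0.41 above. No other of the 627 pairs of autosome and line deviated by more than 0.16. As a check of the EpiLC label, 22 of 25 formative and primed genes measured in both states were at least 2-fold higher in EpiLCs than in ESCs in B6, and 22 in D2, with none at least 2-fold lower. Of 16 naive genes, 15 were at least 2-fold lower in B6 and 13 in D2, with Gbx2 at least 2-fold higher in both. The tables were normalized separately. Formative genes below that fold included Nodal, with a B6 mean of 38.7 in EpiLCs and 72.9 in ESCs, and Etv5, with 296 and 372.

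EpiLC-only regions were narrower and weaker than shared ones. Their median width was 877 bp against 1381 bp, and their median normalized ATAC signal was 3.09 against 6.75. They lay farther from genes: 13.2% were at promoters (within 1 kb of an annotated start) against 32.3% of shared regions, 34.3% in introns against 25.1%, 12.8% in exons against 10.9%, and 39.7% between genes against 31.7%. The nearest start of a gene with a tested RNA level was a median 60.8 kb away against 33.3 kb. Binding sites mapped in ESCs overlapped them less often, with a TRIM28 site at 11.9% against 61.1%, a P300 site (a coactivator found at active enhancers) at 4.20% against 41.6%, and a POU5F1 site at 5.47% against 39.5%. The regions were chosen for overlapping no open region called in ESCs, so low overlap with ESC binding follows in part from the choice and is given as a description. The part of width and signal in these shares was not tested.

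In the middle 200 bases, CCTGCTG, the ZIC string, occurred in 12.9% of EpiLC-only and 10.9% of shared regions, and ACAATG, a SOX string, in 10.4% and 8.83%. The ESRRB string TCAAGGTCA, of a naive pluripotency factor, occurred in 0.22% and 0.41%. The OTX string was in 5.58% and 5.40%, the TEAD string in 11.9% and 11.7%, and the AP-1 string in 6.50% and 5.94%. Repeat-masked sequence made up 22% of the bases on average in EpiLC-only windows and 19.8% in shared windows. The sets differ in promoter content, and outside promoters some of these gaps shrank or turned. There the ZIC string was in 12.9% and 11.7%, the SOX string in 10.6% and 10.3%, and the ESRRB string in 0.22% and 0.46%. The OTX (5.62% and 5.99%), TEAD (12.1% and 13%) and AP-1 strings (6.70% and 6.95%) were less frequent in EpiLC-only regions there. So were repeat-masked bases (23.12% and 24.05%).

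Strain differences were common among EpiLC-only regions and leaned toward higher signal in D2. With limma on log2(signal + 0.1), 16122 of 29704 regions (54.3%) differed between B6 and D2 at an adjusted p under 0.05, where 58.2% of all 100415 EpiLC regions did. Of these, 9412 were higher in D2, beside 25.6% of all EpiLC regions, and 6710 were lower, beside 32.6%. So 58.4% of the called EpiLC-only regions were higher in D2, against 38.5% of the called shared regions, and the median difference was 0.07 against -0.08 on the log2 scale. The lean depends on the scaling: with quantile normalization the share was 51% for EpiLC-only and 49.0% for shared regions, and with edgeR on the recovered reads 64.0% and 46.3%. Differences of at least 2-fold were called at 2016 EpiLC-only regions in the direction of D2, against 4.54% of all regions, and at 1280 in the direction of B6, against 3.71%. Together these are 11.1% of EpiLC-only regions, where the share over all regions was 8.25% and over shared regions 7.06%. The 3 B6 and 3 D2 lines did not overlap at 17307 EpiLC-only regions (58.3%), against 62.2% of all regions.

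Signal level moved with both features, and at middle levels EpiLC-only and shared regions had similar values. Among regions with a mean signal of 2 to 3, 13% of 10029 EpiLC-only regions and 15.9% of 8002 shared regions differed by at least 2-fold, and 64.0% and 66.0% of those called were higher in D2. Between 6 and 10 the 2-fold shares were 5.56% and 5.42%, and 47.8% of the called regions were higher in D2 in both sets. The direction parted at both ends of the range. Above a signal of 10, 41.1% of called EpiLC-only regions and 15.1% of called shared regions were higher in D2, in sets of 1057 and 26277 regions, and below a signal of 2 the shares were 61.7% and 48.8%, in sets of 3310 and 2140. The test of a difference between the sets at matched signal was not run.

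**Figure D1:**
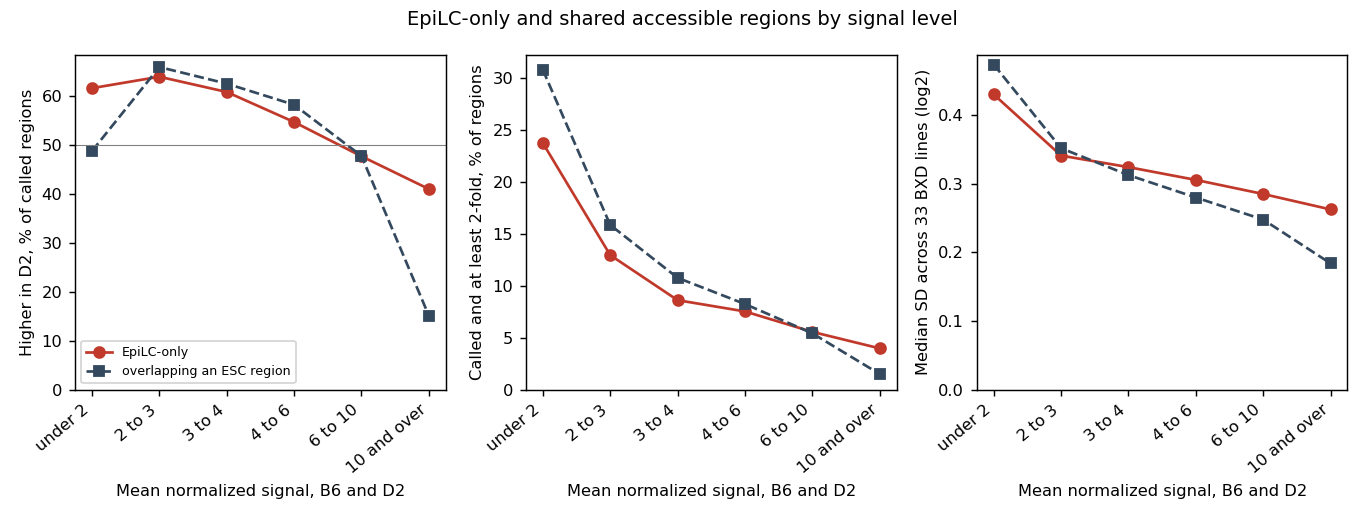
EpiLC-only and shared regions by mean normalized ATAC signal over the 6 B6 and D2 lines (x axis, 6 bins): the percent of called regions higher in D2, the percent called and at least 2-fold different, and the median SD of log2 signal across the 33 BXD lines. In the bin from 2 to 3 the 2-fold shares are 13% for EpiLC-only and 15.9% for shared regions, and the shares higher in D2 run close together except below a signal of 2 and above 10.

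As a whole, EpiLC-only regions held 11.9%, 12.1% and 12.3% of the region signal in the 3 B6 lines and 13.4%, 13.5% and 13.6% in the 3 D2 lines. Every D2 line was above every B6 line, and the means were 12.1 ± 0.221% and 13.5 ± 0.105% (SD, n = 3 each). The exact 2-sided permutation p was 0.1, the smallest that 3 lines against 3 can give. The BXD lines ran from 11.2% to 13.3% with a median of 12.4%, and the lowest, BXD69, was also the shallowest. Over the 33 lines the share and the log2 depth had a Pearson r of 0.25 (permutation p = 0.161) and a Spearman correlation of -0.10 (permutation p = 0.585). Without BXD69 and BXD73, the depths farthest from the median, r was -0.28, so the positive r rests on those lines.

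By position, 2-fold differences were called at 13.5% of EpiLC-only regions between genes, 10.1% in introns, 9.69% at promoters and 7.76% in exons. EpiLC-only regions with an ESC TRIM28 site differed 2-fold at 20.2%, those with a P300 site at 7.29% and those with a POU5F1 site at 5.36%. Over all EpiLC-only regions the share was 11.1%, and shared regions were not split by site. By chromosome the share was highest among autosomes on chromosome 13 (17% of 1396) and chromosome 14 (16.1% of 1200) and lowest on chromosome 11 (7.15% of 1985).

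Sequence content differed with direction. Repeat-masked bases made up 45.7% of the windows of the 1280 regions at least 2-fold lower in D2, against 23.5% for the 2016 at least 2-fold higher and 22% over all EpiLC-only regions. The GRHL string AACCNGTT, known for grainyhead-like factors of epithelial and epiblast enhancers, was in 7.66% of the lower regions, 3.37% of the higher regions, 2.55% of EpiLC-only and 1.89% of shared regions. Of the 98 lower regions with the string, 87 held it wholly inside repeat-masked bases, against 5 of the 68 higher regions and 249 of the 757 EpiLC-only regions with it. Most of the GRHL strings at regions lower in D2 were therefore repeat sequence of the B6 reference.

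The regions with a 2-fold difference in EpiLCs could be followed into ESCs where the larger table held them. Of 1025 such regions higher in D2, 833 also had a higher value in the D2 ESC lines and 283 by at least 1 on the log2 scale, with a median ESC difference of 0.55 where the EpiLC median was 1.32. Of 869 lower in D2, 823 were also lower in ESCs and 519 by at least 1, with medians of -1.22 and -1.53. Over all 17908 EpiLC-only regions in that table the median ESC difference was -0.12.

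The regions with the greatest gain in D2 lay mostly in a zinc finger gene cluster on chromosome 13. The region at chr13:66306083-66306296, in an intron of Gm26754 and 43.2 kb from the start of Gm26715, had a normalized signal of 0.186, 0.0558 and 0.0517 in the B6 lines and 3.93, 5.64 and 5.50 in the D2 lines. Every D2 line was far above every B6 line, with 6 reads in all in B6 and 382 in D2, a depth-scaled ratio of 49.1 (exact 95% interval 22.4 to 135, covering counting error only). The limma difference was 4.74 ± 0.279 on the log2 scale (SE, adjusted p = 1.01e-20), in a window of 86.5% repeat-masked bases. The next intron region shown by its sequence above, at chr13:66292519-66292766 and with an AP-1 string, went from 0.0932, 0.223 and 0.310 in B6 to 5.07, 5.42 and 5.36 in D2, differing by 4.19 ± 0.244 (limma adjusted p = 8.29e-21). Another region of this intron, at chr13:66307462-66308246, differed by 4.14 ± 0.218 (limma adjusted p = 1.17e-22). Gm26715 RNA, a non-coding transcript of the cluster, was 1.41 ± 0.365 in B6 and 9.31 ± 0.782 in D2 (SD, n = 3), a log2 difference of 2.10 by limma (adjusted p = 1.69e-07).

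In the BXD lines those intron regions were split into low and high lines. The region at chr13:66306083-66306296 ran from 0 to 7.95 with a median of 0.563, and 15 of 33 lines lay on the D2 side, meaning above the midpoint of the parental log2 means. At chr13:65708564-65708990, 72.1 kb from the non-coding gene Platr2, the B6 lines had 0.140, 0.167 and 0.155, the D2 lines 3.26, 4.02 and 4.39, and 13 of 33 BXD lines lay on the D2 side. The limma difference was 3.96 ± 0.261 (adjusted p = 8.93e-19), and Platr2 RNA rose from 0.247 to 2.51, a log2 difference of 1.48 by limma (adjusted p = 3.9e-06). A region at chr13:66570761-66571003 near Gm26806 had 0.419, 0 and 0.207 in B6 and 5.90, 5.47 and 5.47 in D2.

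At another 3 of the 8 greatest gains no BXD line came near the D2 level. The region at chr10:103826276-103828378, between genes, had 0.792, 0.669 and 0.982 in B6 and 12.6, 19.6 and 16.3 in D2, differing by 4.14 ± 0.140 (limma adjusted p = 5.14e-26). The highest BXD line had 3.97, below all D2 lines. The same held at chr13:23168185-23170273, close to the vomeronasal receptor gene Vmn1r219, where D2 lines had 8.81 to 10.8 and the highest BXD line 4.45. At chr4:61946402-61947013, 107 kb from the start of Mup20, a major urinary protein gene, D2 lines had 3.42 to 3.66 and the highest BXD line 0.866. The chromosome 4 window was wholly repeat-masked and the chromosome 13 window 95.5%. A looser measure is that no BXD line reached the lowest library of the higher strain, by however little. It held at 399 of the 2016 regions at least 2-fold higher in D2 (19.8%) and 166 of the 1280 lower (13%). All BXD lines lay on the side of the lower strain at 8 of the 399 and 4 of the 166. The same measure was not taken over shared regions.

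The greatest losses in D2 were regions with almost no D2 read. At chr12:23968566-23969567, the promoter of Gm17330, the B6 lines had 5.26, 5.97 and 5.69 and each D2 line had 0. With 330 B6 reads and none in D2, B6 was at least 143-fold higher, counted against a floor of 3 reads over the D2 group. At chr14:42714968-42715351 B6 had 3.35, 3.35 and 3.52 against 0 in each D2 line, at least 86.4-fold higher. Another 5 of the greatest losses had 1 to 3 D2 reads in all.

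Among those 5, the chromosome 4 region printed above with a ZIC and a GRHL string (chr4:122029129-122029959) had 3.77, 4.68 and 5.48 in B6 and 0, 0.0437 and 0 in D2. Its reads gave a ratio of 351 (exact 95% interval 62.5 to 13917). The chromosome 17 region with an OTX and a ZIC string (chr17:37823801-37824782, 8.66 kb from the olfactory receptor gene Olfr125) had 3.96, 4.46 and 5.22 in B6 and 0.0393, 0 and 0 in D2. In an intron of Tasp1, a protease gene, the region at chr2:139906190-139907069 had 4.80, 4.13 and 3.93 in B6 and 0, 0 and 0.108 in D2, and 94% of its window was repeat-masked. Tasp1 RNA was also lower in D2, with 16.7, 18.9 and 18.6 in B6 and 10.3, 10.6 and 9.31 in D2, with a log2 difference of -0.79 by limma (adjusted p = 2.82e-05), though its start lay 160 kb away. Near Frzb, a secreted WNT antagonist gene, the region at chr2:80456624-80457402 had 3.87, 3.96 and 3.98 in B6 and 0, 0.0437 and 0 in D2. The last of the 5, at chr17:48283457-48284384 and 15.6 kb from Treml2, fell from a mean of 4.85 to 0.036.

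Most BXD lines had either a level near the B6 level or nearly none at these regions. At Gm17330 17 of 33 lines lay on the D2 side, at the chromosome 4 region 23, near Olfr125 9, near Treml2 13, near Frzb 16, on chromosome 14 26 and at Tasp1 16. Where the larger ESC table held them (all but the Treml2 region), the B6 ESC level was 0.45 to 1.25 and the D2 ESC level -2.94 to -2.29 on the log2 scale, so B6 was also the higher strain in ESCs. Whether strain variants were used in mapping was not given in the sources used here, and whether the D2 genome holds these sequences was not tested.

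**Figure D2:**
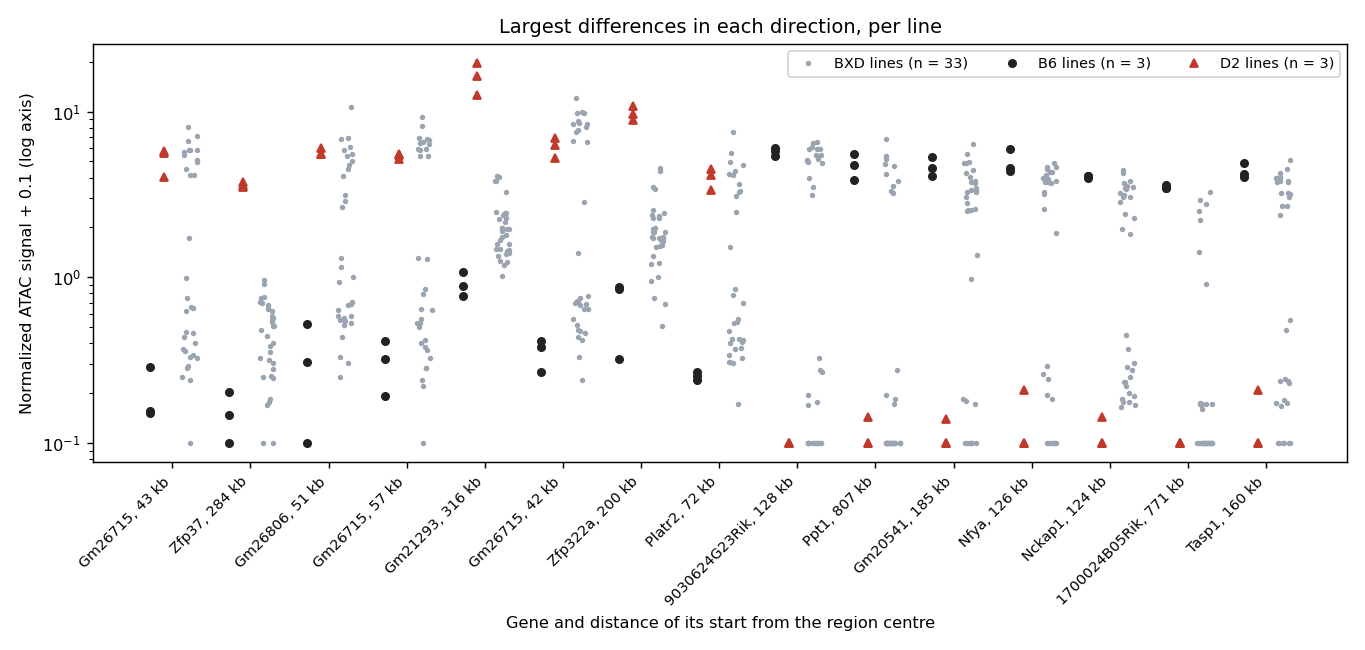
Normalized ATAC signal plus 0.1 (log axis) in each B6, D2 and BXD line at the 8 EpiLC-only regions with the greatest called gains in D2 and 7 of those with the greatest called losses, each labelled by its nearest gene with a tested RNA level. At the losses all 3 D2 lines sit at or near 0 and the BXD lines form a high and a low group, while at 3 gains (Zfp37, Gm21293 and Zfp322a labels) every BXD line is below every D2 line.

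The 2-fold differences clustered along the genome. Of 2533 bins of 1 Mb with an EpiLC-only region, the median bin had 1 such region and 29 bins had at least 8. On chromosome 13 from 65 to 66 Mb, 38 of 43 EpiLC-only regions were at least 2-fold higher in D2 and none lower, with a median difference of 2.59. From 66 to 67 Mb it was 35 of 36, with a median of 2.91. The shared regions there moved too, with medians of 2.05 and 2.17. In the second of these bins 7 of 10 tested genes were at least 2-fold higher in D2, among them Gm10324, Gm10772, 2410141K09Rik and Zfp640. RNA of Gm10324 was 26.7, 23 and 22.9 in B6 and 95.1, 73.2 and 84.9 in D2, with a log2 difference of 1.76 by limma (adjusted p = 7.43e-08). Across the BXD lines the 2-fold regions of the 65 to 66 Mb bin rose and fell together, with a median pairwise Spearman correlation of 0.81, and a median of 14 lines on the D2 side.

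On chromosome 17 from 30 to 31 Mb, 16 of 45 EpiLC-only regions were at least 2-fold higher in D2 and none lower. Of 41 shared regions there, 17 were at least 2-fold higher and none lower. The median differences were 0.74 for EpiLC-only and 0.77 for shared regions. This interval holds Glo1, the glyoxalase gene that lies in a copy-number duplication known in D2 and other strains. Glo1 RNA was 127, 126 and 123 in B6 and 309, 281 and 285 in D2, with no overlap, and differed by 1.21 ± 0.0711 (limma adjusted p = 7.31e-08). RNA of the neighbouring Dnah8, a ciliary dynein, was 6.41 ± 0.867 and 33.2 ± 5.11, and of Btbd9 28.9 ± 1.89 and 40.3 ± 1.36 (SD, n = 3), while Zfand3 differed by -0.07 (limma adjusted p = 0.487). A median of 26.5 of 33 BXD lines lay on the D2 side at those 16 regions. The part of gene copy number in the accessibility values was not tested. On chromosome 17 from 6 to 7 Mb, 19 of 35 EpiLC-only and 21 of 82 shared regions were at least 2-fold higher in D2, with 0 and 1 at least 2-fold lower.

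Loss in D2 clustered on chromosome 4 from 147 to 148 Mb, another array of zinc finger genes, where 14 of 65 EpiLC-only regions were at least 2-fold lower and none higher. Of 92 shared regions there, 18 were at least 2-fold lower and none higher. The median differences were -0.49 for EpiLC-only and -0.51 for shared regions. RNA of Zfp534 was 97.3, 88.0 and 103 in B6 and 41.4, 35.3 and 36.8 in D2, with a log2 difference of -1.32 by limma (adjusted p = 2.13e-07). Of 21 tested genes in this bin 10 were lower and 5 higher in D2 by limma. Zfp984 differed by -1.38 and Zfp979 by -0.92, both called, while Zfp988 did not pass (0.10, limma adjusted p = 0.753). The higher genes were 4933438K21Rik, Gm13146, Miip, Mfn2 and 2510039O18Rik, 2 of them by at least 2-fold. On chromosome 5 from 93 to 94 Mb, 13 of 33 EpiLC-only regions were at least 2-fold lower and 1 higher, against 7 and 2 of 30 shared regions. At the 2-fold EpiLC-only regions there, a median of only 2 of the 33 BXD lines lay on the D2 side. At the chromosome 4 bin that median was 8.

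Across the BXD panel EpiLC-only regions varied more than shared regions in absolute terms, with a median SD over the 33 lines of 0.33 on the log2 scale against 0.25, where the SD within the parental strains was 0.15 and 0.10. The gap differed with signal: between signals of 2 and 3 the medians were 0.34 and 0.35, and above 10 they were 0.26 and 0.18. EpiLC-only regions with a 2-fold parental difference had a median SD of 0.51 (0.45 where D2 was higher, 0.61 where it was lower) and those with a 4-fold difference 0.96. Regions not called between the parents had 0.31. A BXD SD of at least 1 was found at 393 EpiLC-only regions, and 358 of them were 2-fold different between the parents. The 17 regions on the Y chromosome had a median SD of 1.74 and the 582 on X 0.43. Lines also differed over these chromosomes as a whole. The median log2 deviation of a line over all Y regions ran from -4.15 (BXD95) to 0.67 (BXD64). Over all X regions it ran from -0.25 (BXD43) to 0.61 (BXD86). The part of such whole-chromosome differences in the spread on X and Y was not tested.

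At 2-fold regions the lines divided between the parental sides. The quartiles of the number of lines on the D2 side were 11, 17 and 23 of 33. Between 10 and 23 lines lay on the D2 side at 58.6% of the 2-fold EpiLC-only regions, against 67.7% of the 2-fold shared regions and 76.6% of the 4-fold EpiLC-only regions. All 33 lines lay on 1 side at 61 of the 3296 2-fold regions. Regions not called between the parents but with a BXD SD of at least 1 numbered 19, of which 9 were on autosomes.

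**Figure D3:**
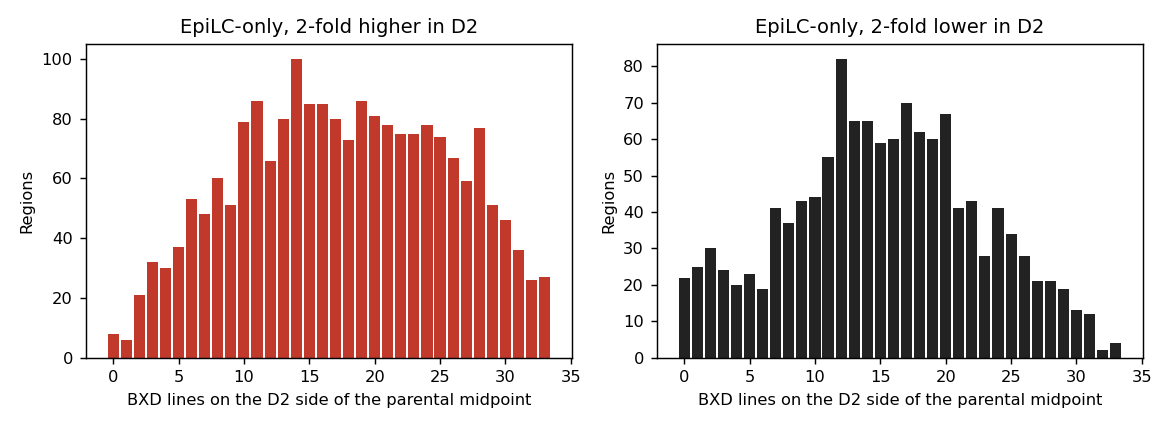
Number of EpiLC-only regions (y axis) by how many of the 33 BXD lines lie nearer D2 than the midpoint of the parental means (x axis), for the 2016 regions called at least 2-fold higher and the 1280 called at least 2-fold lower in D2. Most regions lie in the middle of the range, with quartiles over both sets of 11, 17 and 23 lines.

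Genes near EpiLC-only regions differed between the strains about as often as other genes. A gene with a tested RNA level had its start within 100 kb of 18519 EpiLC-only regions, and 7860 genes were nearest to at least 1 of them. By limma on log2(RNA signal + 1), 4603 of the 7860 (58.6%) differed in EpiLC RNA, where 57.5% of all 12692 tested genes did and 55.7% of the genes nearest to none. Of these, 2213 were higher in D2, beside 28.5% of all genes, and 2390 lower, beside 29%, with a median difference of -0.01. Nearest the 2-fold higher regions, 346 of 916 genes were higher and 244 lower in D2, and nearest the 2-fold lower regions 118 of 486 were higher and 220 lower.

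Region and gene moved the same way more often where both changes were large. Where both were called, the directions were the same at 3479 of 5942 pairs (58.5%), against 58.7% for shared regions. With the region at least 2-fold different it was 735 of 1138 (64.6%, shared 67.1%), and with both at least 2-fold different it was 278 of 355 (78.3%, shared 83.6%). Of the 278 pairs, 213 were higher in D2. Without the 4 bins of 1 Mb that hold the most 2-fold regions (on chromosomes 13 and 17, above), it was 219 of 292 (75%), with 154 higher. ATAC and RNA came from the same 6 lines, and neighbouring regions share a nearest gene, so the 355 pairs are 227 genes.

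Genes with many EpiLC-only regions were more often genes that EpiLCs turn on. Only genes with RNA values in both states could be counted, which leaves out Fgf5 and Wnt8a among others. Of the 391 such genes nearest to 6 or more, 23.3% were at least 2-fold higher in EpiLCs than in ESCs, against 8.21% of the 4533 such genes nearest to none. The shares at least 2-fold lower were 9.97% and 9.38%. The genes nearest to 6 or more also had more shared regions nearest to them, a median of 8 against 2, and whether the share goes with EpiLC-only regions in particular was not tested. The 2 states were normalized in separate tables, so these are descriptions. Pou3f1, a POU factor of the formative epiblast, and Nfatc2, a calcium-regulated factor, each were nearest to 14 regions, Syt13 to 13, and Spry4, a feedback inhibitor of FGF signalling, to 12. The B6 means in ESCs and EpiLCs were 5.32 and 291 for Pou3f1, 2.47 and 11.9 for Syt13, and 2.98 and 74.8 for Spry4. Nfatc2 was not higher in B6 EpiLCs (6.29 and 5.79), though it was in D2 (4.84 and 11.4). Casz1, also nearest to 12 regions, was lower in EpiLCs (15.6 and 3.73 in B6). Nfatc2 RNA was higher in D2 (5.79 ± 1.10 and 11.4 ± 1.55, limma log2 difference 0.88, adjusted p = 0.000219), as was Spry4 RNA (74.8 ± 20.3 and 143 ± 5.41, difference 0.96, adjusted p = 0.00195). Grhl2, a grainyhead-like factor nearest to 10 regions, had RNA of 34.8 ± 3.76 in B6 and 66.5 ± 5.28 in D2, differing by 0.92 by limma (adjusted p = 7.69e-06). Other genes with many EpiLC-only regions were lower in D2. Emb, nearest to 10, differed by -1.19 (limma adjusted p = 4.31e-07), and Brca2, nearest to 11, by -0.87 (limma adjusted p = 2.06e-05).

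Around the formative and primed genes, accessibility and RNA did not always go together. Within 100 kb of the 28 genes of this list lay 152 EpiLC-only regions, of which 38 were higher and 33 lower in D2. These are 25% and 21.7%, where 31.7% and 22.6% of all EpiLC-only regions were. Of the 27 genes with RNA, 14 were higher in D2 and 9 lower, with a median difference of 0.48. The nearest region to Fgf5, a ligand that marks the post-implantation epiblast, lay 8.27 kb from its start (chr5:98245223-98246605). Its signal was 3.82, 4.57 and 3.88 in B6 and 9.36, 9.19 and 8.74 in D2, without overlap, a difference of 1.14 ± 0.0987 (limma adjusted p = 2.07e-14). Fgf5 RNA was 22.6, 24.1 and 30.1 in B6 and 49.8, 40.4 and 41.9 in D2, higher by 0.77 ± 0.114 (limma adjusted p = 0.000141). In the BXD lines this region ran from 3.07 to 9.12 with a median of 5.13, and 4 of 33 lines lay on the D2 side.

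Utf1, a chromatin factor of pluripotent cells, had its nearest region at chr7:139936333-139938742, with 10.2, 8.64 and 10.2 in B6 and 18.5, 17.7 and 18.3 in D2. The difference was 0.90 ± 0.0714 (limma adjusted p = 7.65e-16), and Utf1 RNA differed by 0.60 ± 0.0987 (limma adjusted p = 0.000278). TRIM28 at this site in ESCs was also higher in D2, from 11.8 ± 1.46 to 23.8 ± 2.00 (SD, n = 3; limma log2 difference 1.02, adjusted p = 1.11e-08). For Sall2, a zinc finger factor, region and RNA both fell: the region had 3.26, 2.90 and 3.05 in B6 and 1.22, 1.27 and 0.827 in D2, differing by -1.42 by limma (adjusted p = 3.64e-09), and the RNA differed by -0.81 (limma adjusted p = 7.75e-05). At Sox3, a SOX factor on the X chromosome, the region 3.33 kb away had 9.55, 10.9 and 8.84 in B6 and 3.50, 2.97 and 3.49 in D2, differing by -1.53 ± 0.104 (limma adjusted p = 3e-18). Sox3 RNA was lower by limma too (log2 difference -0.30, adjusted p = 0.0208), but that call was lost without the RNA library of B51 (difference -0.22) or DAC203 (-0.21).

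At Sox4 the directions were opposite. Its nearest region had 3.68, 3.18 and 2.58 in B6 and 4.40, 4.29 and 5.39 in D2, differing by 0.57 ± 0.128 (limma adjusted p = 0.000165), while Sox4 RNA was 93.4, 83.6 and 90.0 in B6 and 58.6, 60.7 and 53.5 in D2, differing by -0.62 ± 0.0798 (limma adjusted p = 4.48e-05). Neither set of values overlapped. The region nearest Sox11 did not pass the test (limma difference -0.12, adjusted p = 0.471) although Sox11 RNA was lower in D2 by -1.12 (adjusted p = 5.83e-05). The region nearest Wnt8a did not pass either (0.27, limma adjusted p = 0.135), although Wnt8a RNA, of a WNT ligand of the primitive streak, was 9.29, 10.8 and 10.3 in B6 and 36.5, 39.3 and 44.1 in D2, higher by 1.88 (adjusted p = 2.72e-08). The region nearest Tcf15 did not pass (0.08, limma adjusted p = 0.526). At Etv5 the region difference was 0.42 (limma adjusted p = 0.0195), and the call was lost without B41 (0.35), B44 (0.35) or DAC203 (0.31), with quantile normalization (0.31) and with DESeq2 (0.48).

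Among the genes of the 8 lists, Pou3f1 had the most EpiLC-only regions around it, 15 within 100 kb, with 1 higher and 7 lower in D2 and differences from -0.57 to 0.25. The nearest, of which 43 of 3816 bases reached into the gene's 3′ end, at 30.4, 29.2 and 30.2 in B6 and 28.2, 28.3 and 23.8 in D2, differed by -0.17 ± 0.0582 (limma adjusted p = 0.0131). That call was lost without DAC203 (-0.08), with limma without trend and robust (-0.17), with median-ratio scaling (-0.12), and on the recovered reads with edgeR (-0.11) and DESeq2 (-0.12), and turned to 0.04 with quantile normalization. Pou3f1 RNA did not pass the test (-0.08, adjusted p = 0.507). Of 8 regions around Dnmt3a, a de novo DNA methyltransferase, 4 were higher in D2 and none lower.

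**Figure D4:**
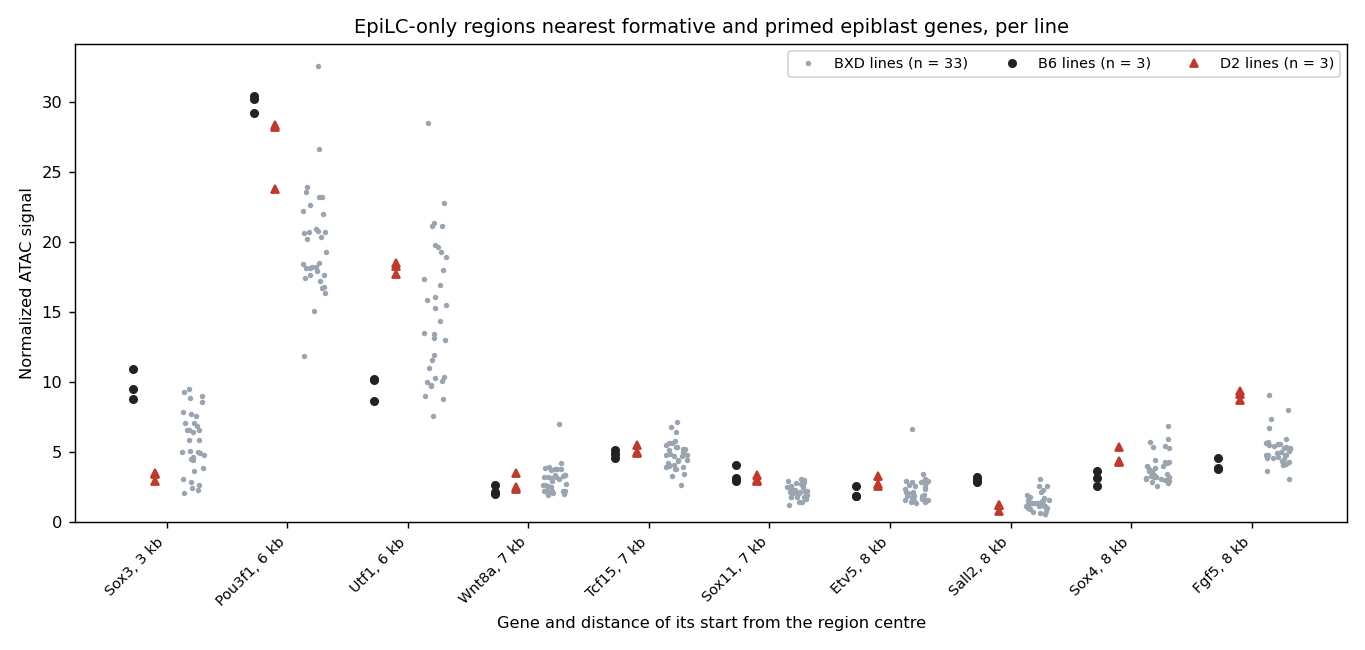
Normalized ATAC signal in each B6, D2 and BXD line at the EpiLC-only region nearest the start of 10 formative and primed genes, with the distance in kb. The D2 lines lie above the B6 lines at Fgf5, Utf1 and Sox4 and below them at Sox3 and Sall2, while at Wnt8a, Tcf15 and Sox11 the strain difference did not pass the test.

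The other gene lists were measured in the same way, in RNA, where 28.5% of all genes were higher and 29% lower in D2, and in the EpiLC-only regions within 100 kb, where 31.7% and 22.6% of all were. Naive pluripotency genes were 10 higher and 1 lower of 16, with 19 higher and 13 lower of 56 regions, and core pluripotency genes 5 and 3 of 10, with 20 and 16 of 65 regions. Early neural genes were 2 higher and 7 lower of 9 in RNA, with 7 higher and 17 lower of 38 regions. Mesendoderm genes were 4 higher of 4 tested, from a summed level of 3.78 to 6.04 in B6 to 13.9 to 18.3 in D2, while their 58 regions were 15 higher and 24 lower. As markers of other cells, primitive endoderm genes were 4 higher of 9 (summed level 224 to 284 in B6 and 246 to 463 in D2), fibroblast genes 5 higher and 1 lower of 13 (343 to 431 and 473 to 624), and trophectoderm genes 4 higher and 1 lower of 9 (68.4 to 76.3 and 67.1 to 81.1). Their part in the strain differences was not tested.

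The 5 autosomal EpiLC-only regions with the highest signal lay near Polr1c, Irf2bpl, Dnmt3b, Meg3 and Zfp574. The widest strain difference was at a region inside Meg3, a maternally expressed imprinted non-coding RNA (chr12:109545775-109551941). The middle of this region lay 7.86 kb from the gene start, and it counted as a promoter through another annotated start. Its signal was 32, 30 and 30.1 in B6 and 63.9, 58.8 and 57.2 in D2, differing by 0.96 ± 0.0503 (limma adjusted p = 7.79e-23). Meg3 RNA was 100, 97.4 and 94.5 in B6 and 195, 211 and 220 in D2, differing by 1.09 ± 0.0740 (limma adjusted p = 2.45e-07). The BXD lines, from 20.3 to 41.3, all lay on the B6 side, with 15 of 33 inside the parental range and the others below it. Region and RNA were not called together across them (Spearman correlation 0.13, adjusted p = 0.709). The region across the 3′ end of Dnmt3b, a de novo DNA methyltransferase (chr2:153684800-153691568), had 2930 of its 6768 bases in that gene, and its middle lay 8.47 kb from the start of Dnmt3c. It had 60.8, 59.8 and 69.1 in B6 and 56.1, 56.8 and 56.3 in D2, and all BXD lines, from 19.6 to 49.5, lay below both parents. Its strain difference of -0.16 (limma adjusted p = 0.00347) was lost without B51 (-0.10), with limma without trend and robust (-0.16), with edgeR (-0.11) and with DESeq2 (-0.12), and became 0.05 with quantile normalization. Likewise the region nearest Irf2bpl (-0.15, limma adjusted p = 0.016) was lost without B44 (-0.13) or DAC203 (-0.08), with limma without trend and robust (-0.15), with median-ratio scaling (-0.10), with edgeR (-0.09) and with DESeq2 (-0.10), and became 0.07 with quantile normalization. At Zfp574 the promoter region fell by 0.37 on the log2 scale (limma adjusted p = 3.37e-07) while its RNA was higher by 0.73 (adjusted p = 0.000143), and at Polr1c neither passed the test (0.02 and 0.13, limma adjusted p = 0.805 and 0.222). The Polr1c region was called higher with quantile normalization (0.22), and the RNA without the library of B44 (0.22). All BXD lines lay below both parents at the Polr1c region too, from 28.5 to 46.0 where the lowest parental line had 46.9. At the Irf2bpl and Zfp574 regions 21 of 33 lines lay inside the parental range. The part of a general offset between BXD and parental libraries in these values was not tested.

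Across the 33 BXD lines, the signal of 1218 EpiLC-only regions was correlated positively with RNA of the nearest gene and that of 191 negatively, of 18519 tested. These are rank correlations at an adjusted p under 0.05. That is 7.61% in all, where 9.63% of the 71366 EpiLC region and gene pairs were called, 8.64% positively and 0.988% negatively, and 10.3% of the pairs of shared regions. The median correlation was 0.09, and 0.12 for shared regions. Within 2 kb of a start 47 of 292 EpiLC-only pairs were positive and 2 negative (16.8%), and of 1677 pairs whose region was at least 2-fold different between the parents 287 were positive and 50 negative (20.1%). With the main axis of variation over lines (the first principal component) removed from both tables, 504 were positive and 95 negative. Lines share chromosome segments, so neighbouring regions and genes are not independent.

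The 10 strongest pairs, among 2021 in which region and gene were both called between the parents and 1 of them by at least 2-fold, were at 6 genes: Stmn4, Cdh15, 2410141K09Rik, Slfn8, Gm10772 and Scn2b. Since strong relations chose them, their correlations describe them. All 10 were positive, from 0.84 to 0.92, with an adjusted p of 3.74e-05 each in the line shuffles. At Stmn4, a stathmin family gene of neurons, the promoter region had 23.7, 24.4 and 24.6 in B6 and 10.8, 13.7 and 11.4 in D2, differing by -1.02 ± 0.0685 (limma adjusted p = 7.79e-18). Stmn4 RNA was 4.56, 5.37 and 3.77 in B6 and 0.186, 0.463 and 0.431 in D2 (limma difference -2.03, adjusted p = 5.29e-07). Both measures were lower in every D2 line. Over the BXD lines the region ran from 7.45 to 25.6, with a Spearman correlation of 0.92 and a Pearson r of 0.88 on the log2 scale (permutation p = 1e-05 each, the smallest the permutations can give). Without the 2 lines farthest from the median, r was 0.88. With the first principal component removed, the adjusted p was 0.0593.

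At Cdh15, which encodes M-cadherin of muscle, the region covers exon sequence of the gene, 17.1 kb from its start (chr8:122864062-122866107). Its signal was 3.49, 2.79 and 2.53 in B6 and 13.5, 15.7 and 14.5 in D2, differing by 2.28 ± 0.101 (limma adjusted p = 3.03e-25). Cdh15 RNA was 1.12, 1.27 and 1.24 in B6 and 6.35, 6.69 and 5.89 in D2 (limma difference 1.72, adjusted p = 2.55e-07). In ESCs of the same lines, TRIM28 differed the other way at this site, with 101, 98.5 and 84.1 in B6 and 15, 10.7 and 12.5 in D2, differing by -2.89 ± 0.120 (limma adjusted p = 2.29e-22). None of these 3 measures, accessibility and RNA in EpiLCs and TRIM28 in ESCs, overlapped between the strains. In the BXD lines the region ran from 5.99 to 24.3, so every line was above every B6 line, and 29 of 33 lay on the D2 side. Why no line reached the B6 level was not tested. The Spearman correlation with Cdh15 RNA over these lines was 0.92 and r was 0.91 (permutation p = 1e-05 each).

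Scn2b, a sodium channel beta subunit, had the widest fall in RNA of these 6 genes, from 25.5, 21.7 and 27.1 in B6 to 0.298, 0.615 and 0.614 in D2 (limma difference -4.10, adjusted p = 4.81e-10). Its promoter region, at chr9:45117008-45119001, had 15.9, 15.3 and 16 in B6 and 2.04, 2.23 and 1.91 in D2, differing by -2.87 ± 0.10 (limma adjusted p = 2.28e-30). All 33 BXD lines lay between the parents, from 2.87 to 13.5, and the Spearman correlation with the RNA was 0.86 (permutation p = 1e-05, adjusted p = 0.0630 with the first principal component removed). TRIM28 at this site in ESCs was 2.98 ± 0.705 in B6 and 5.53 ± 0.660 in D2 (SD, n = 3; limma difference 0.89, adjusted p = 0.000748).

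Slfn8, a Schlafen family gene with near copies beside it, was close to silent in B6, at 0.0458, 0.111 and 0.0807, and had 9.21, 6.07 and 7.71 in D2 (limma difference 2.99, adjusted p = 2.1e-08). Of its 2 regions, the intron region printed above had 1.4, 1.56 and 1.24 in B6 and 4.25, 4.59 and 3.88 in D2 (difference 1.54, limma adjusted p = 1.7e-12). The other region, 3.4 kb from the gene start and at another annotated start, had 1.68, 1.51 and 1.09 in B6 and 4.64, 5.56 and 6.08 in D2 (1.87, limma adjusted p = 2.19e-15). The Spearman correlations with the RNA over the BXD lines were 0.87 and 0.86. Slfn8 lies on chromosome 11, where 4 lines had raised signal, and without those 4 lines the Spearman correlations of the 10 pairs were 0.86 to 0.92.

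The other 5 pairs lie in the chromosome 13 cluster. RNA of 2410141K09Rik, a zinc finger gene, was 33, 29.3 and 37.1 in B6 and 210, 175 and 193 in D2 (limma difference 2.51, adjusted p = 2.84e-09). Its promoter region, printed above with a ZIC string, had 0.419, 0.669 and 0.724 in B6 and 5.54, 6.39 and 7.34 in D2 (3.23, limma adjusted p = 1.18e-21). A second region 27.6 kb away (chr13:66467711-66469781) had 2.10, 1.34 and 1.19 in B6 and 8.18, 8.75 and 8.49 in D2, and TRIM28 there in ESCs was 20.8 ± 2.47 in B6 and 101 ± 17.8 in D2 (SD, n = 3; limma difference 2.26, adjusted p = 6e-19). The BXD lines fell into 20 with 2.42 to 5.27 and 13 with 13.3 to 23.8, the latter all above the D2 parent lines. Within these sets r with the RNA was 0.38 (permutation p = 0.10) and 0.78 (permutation p = 0.00141). At the intron region nearest Gm10772 the lines fell into 20 with 0.509 to 1.79 and 13 with 6.14 to 13.9, and r within them was 0.64 (permutation p = 0.00207) and 0.69 (permutation p = 0.0118). At 2 of the 3 regions of 2410141K09Rik the adjusted p with the first principal component removed was 0.417 and 0.192.

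**Figure D5:**
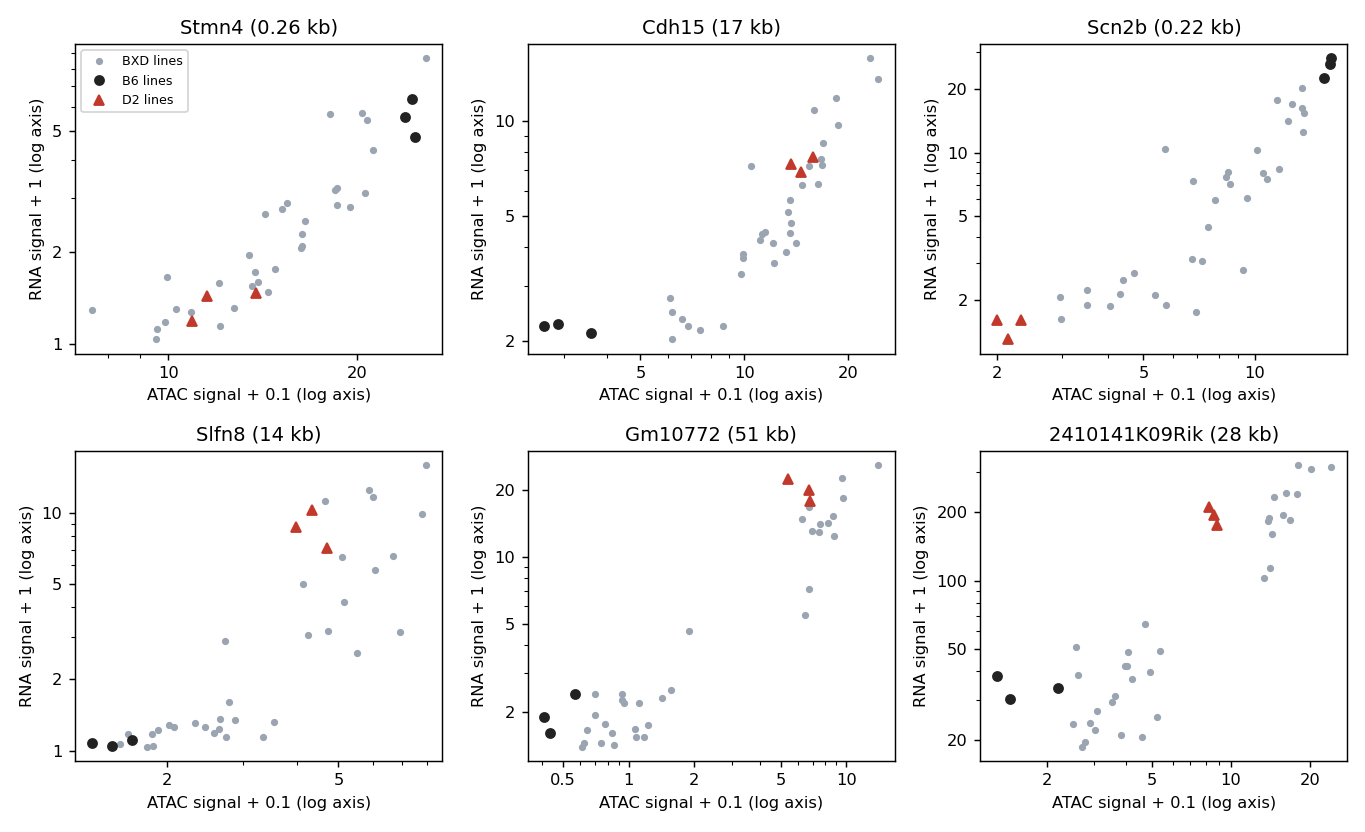
RNA signal plus 1 of the gene against ATAC signal plus 0.1 of the EpiLC-only region (log axes), 1 point per line, for 6 of the 10 strongest pairs across the 33 BXD lines, with the distance of the region from the gene start. The B6 and D2 lines lie at opposite ends at Scn2b, and at Gm10772 and 2410141K09Rik the BXD lines fall into a low and a high group of 20 and 13.

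TRIM28 was measured in ESCs only, so its values stand beside EpiLC accessibility without sharing a cell state. Of 3508 ESC TRIM28 sites that overlapped EpiLC-only regions, 767 were higher and 724 lower in D2 by limma (42.5%), where 38.1% of all 94211 sites were called, and the median difference was 0.06 against 0.05. Where ESC TRIM28 and EpiLC accessibility both differed by at least 2-fold, at 347 regions, 49 were higher in D2 in both, 95 lower in both, 122 had higher accessibility with lower TRIM28 and 81 the reverse. Opposite directions made up 203 of the 347, and the same count was not made over shared regions. Among named regions, Cdh15 had higher EpiLC accessibility and lower ESC TRIM28 in D2, the 2410141K09Rik region at 27.6 kb was higher in both, and at Scn2b TRIM28 was higher in D2 where accessibility was lower.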

How the data were processed

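EpiLC ATAC-seq and RNA-seq tables of 3 B6, 3 D2 and 33 BXD lines were used, with TRIM28 ChIP-seq of the same 6 parental lines as ESCs. MACS 1.4.2, HISAT2 2.0.5, Bowtie 1.0.0 and the mm10 genome appear, per the submitters' processing notes, with roles not given in the sources used here. A normalized signal per region or gene is what the authors deposited. The ATAC and TRIM28 signal was a whole multiple of 1 step per library (100% of values within 0.01), so the reads were recovered from it. The larger ESC table holds log2 values that the authors deposited. That the groups came from separate lines is per the labels.

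Regions were compared by overlap (bedtools 2.31.1, minimum 1 bp) and placed with GENCODE M21 (GRCm38). Strain differences, always D2 minus B6, were fitted with limma 3.58.1 (R 4.3.3, trend and robust) on log2(value + 0.1) for ATAC and TRIM28 and log2(value + 1) for RNA of genes with a mean of at least 0.5, over all features of each table, with Benjamini-Hochberg adjustment. Fold changes are on these scales, which understate low features. Across BXD lines, rank correlations with the nearest start within 100 kb were tested with 10000000 shuffles of the lines and adjusted over all 71366 pairs. The ATAC, RNA and BXD tests, but not the TRIM28 fit, were tested on simulated data: of 200 regions changed 2-fold, limma called 78.5%, edgeR 80.5% and DESeq2 72.5%, and of 200 genes limma called 92.5%. The BXD test called 99.6% of 5000 simulated pairs, which were given a strong correlation and drawn independently of each other. Weaker relations and shared chromosome segments were not simulated, so this share does not carry over to the real pairs. edgeR 4.0.16 and DESeq2 1.42.0 on recovered reads, other scalings, pseudocounts, filters and left-out lines were alternatives.

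Named regions are the 8 greatest called differences in each direction without overlap between strains and with the higher mean at or above the median, the 5 with the highest signal, the region nearest each of 10 formative genes, and the 10 strongest BXD pairs. 1 of the greatest losses is not reported here. Other named bins and genes were chosen after their values were seen. The 8 gene lists, the regions and the tests were chosen with earlier results of these data known. The 12 motif strings were searched in the middle 200 bases. The replicate numbers of the 2 strains name different lines and did not pair them.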

Additional observations from a re-analysis of the deposited data

How the results depend on the processing

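Counts of EpiLC-only regions higher and lower in D2 stayed within 1.5 times of 9412 and 6710 except in these cases. With a minimum mean at the 25th percentile of all regions, which tests fewer regions, they were 4890 and 4091, and over regions absent from the larger ESC table, they were 4258 and 2675. With DESeq2 on recovered reads 4237 were lower, and the cause was not tested. Leaving out each line in turn gave 8272 to 9125 higher and 5875 to 6406 lower regions, 1882 to 2279 higher and 2041 to 2518 lower nearest genes, and 675 to 722 higher and 653 to 698 lower TRIM28 sites. Restricted to starts within 20 kb, 1322 nearest genes were lower, and 554 BXD correlations were positive and 83 negative. With the first principal component removed these were 504 and 95, with the cause not tested. Without BXD69 they were 1134 and 173, and without BXD81, BXD84, BXD99 and BXD161, 873 and 161 (both chosen after seeing the data).

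With quantile normalization the differences of the regions nearest Irf2bpl (0.069), Dnmt3b (0.045) and Pou3f1 (0.036) changed sign, and the cause was not tested. Differences that had not passed the test also changed sign when single lines were left out: the Polr1c region ran from -0.030 to 0.051, the Sox11 region from -0.21 to 0.021, and the RNA of Nfya from -0.11 to 0.026 and of Pou3f1 from -0.16 to 0.0093. Of 940 alternative values for single named regions and genes, 901 kept direction and call, 26 lost the call, 2 gained it and 11 changed sign.

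With the replicate number as a block, 9224 regions were higher and 6580 lower, 2108 genes higher and 2272 lower, and 793 TRIM28 sites higher and 738 lower. Same-numbered lines did not deviate together (r of -0.11, -0.02 and -0.02 in ATAC), so the numbers are names only. Depth limits single weak regions, and BXD libraries are shallower than parental ones. The simulation that recovered 78.5% of 2-fold changes used parental depths and changed 200 of 100415 regions at all signal levels. It therefore does not measure recovery at BXD depth or at weak regions alone.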
